A study of Mus musculus with 46 samples.

Results

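The classical antiviral interferon-stimulated genes (ISGs) Isg15, Ifit1, Ifit2, Ifit3, Mx1, Oasl2, Rsad2, Usp18, Ifi44 and Irf7 were followed through 8 groups of MC-38 samples profiled by RNA-seq. These 10 genes were chosen by name from the 48795 gene rows of the expression table, for their place among the antiviral genes that type I interferon induces, and each of them passed the filter on low values in every comparison. Levels are given in FPKM, fragments per gene, scaled for the length of its transcripts and for the total mapped in a library, so that levels of different genes are comparable per length.

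MC-38 is a mouse colon carcinoma line, measured here as cultured cells and as tumors grown under the skin of the right flank of mice. The antibody arm used female wild-type C57/BL6NTac mice, aged 8 to 10 weeks. They received the PD-1 antibody muDX400 (PD-1 Ab) or an isotype control antibody at 5 mg/kg every 4 days from day 7 after implantation, and tumors were taken at day 11 after 1 dose or at day 15 after 2 doses. Baseline tumors came from WT mice labelled as untreated, with no day given. The genetic arm used Rosa26-creERT2 Pdcd1 fl/fl mice (PD-1cKO), in which tamoxifen activates a Cre recombinase expressed from the Rosa26 locus in many cell types and removes exons 2 and 3 of Pdcd1. The Pdcd1 fl allele was made in embryonic stem cells of the C57/BL6NTac strain. Both PD-1cKO mice and the littermate controls labelled WT were also female and aged 8 to 10 weeks. Both had tamoxifen at 40 mg/kg on 5 consecutive days. Their tumors are labelled day 28, and the study's methods give day 22. The groups held 3 cultures, 3 baseline tumors, 5 tumors in each of the 4 antibody groups, 10 PD-1cKO tumors and 10 WT tumors. The labels do not say that every tumor came from a separate mouse, so p-values measure the spread between these samples.

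Type I interferons bind the receptor formed by Ifnar1 and Ifnar2, and the kinases Jak1 and Tyk2 then phosphorylate transcription factors such as Stat2. With Irf9, these make up the complex ISGF3, which binds the interferon-stimulated response element (ISRE) in the promoters of antiviral genes. Interferon γ acts through another receptor and mainly through the GAS element. Many ISGs respond to both kinds of interferon, and in tumors they are expressed by malignant cells and by infiltrating leukocytes alike.

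Isg15 (ENSMUSG00000035692, chr4:156199424-156200818, minus strand, GRCm38) encodes a ubiquitin-like protein that is attached to other proteins, and Usp18 (ENSMUSG00000030107, chr6:121245906-121270917, plus strand) encodes the protease that removes it and also damps signalling at Ifnar2. The Ifit proteins bind foreign RNA and limit its translation. Their genes lie within 99.3 kb on chromosome 19, all on the plus strand: Ifit2 (ENSMUSG00000045932, chr19:34550694-34576419), Ifit3 (ENSMUSG00000074896, chr19:34583531-34588731) and Ifit1 (ENSMUSG00000034459, chr19:34640871-34650009). Rsad2 (ENSMUSG00000020641, chr12:26442746-26456452, minus strand) encodes viperin, an enzyme that makes a chain-terminating nucleotide. Oasl2 (ENSMUSG00000029561, chr5:114896936-114912234, plus strand) belongs to the oligoadenylate synthetase family. Mx1 (ENSMUSG00000000386, chr16:97447035-97462907, minus strand) encodes a GTPase that blocks viral replication, and RefSeq lists the copy of the reference strain as a transcribed pseudogene. Ifi44 (ENSMUSG00000028037, chr3:151730922-151749960, minus strand) is an interferon-induced gene whose function is less well defined. Irf7 (ENSMUSG00000025498, chr7:141262706-141266481, minus strand) encodes the transcription factor that amplifies interferon α production. Of the 50-base stretches of Ifit3 transcripts, 51.2% also occur in transcripts of other genes, all of them shared with Ifit3b, so the split of fragments between Ifit3 and Ifit3b is uncertain. The share was 7.13% for Ifit1, mostly with Ifit1bl2, 3.96% for Isg15, 3.91% for Mx1, mostly with Mx2, and 0.138% or less for the other 6.

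Promoter windows from 250 bases before to 50 bases after the start of transcription (RefSeq, GRCm38.p6) matched 8 of the 10 genes, all but Mx1 and Usp18. The ISRE-like motif GAAANNGAAA was searched on both strands (TTTCNNTTTC on the other). It occurred in the windows of 4 of these 8 genes, Isg15, Ifit1, Ifit3 and Rsad2, compared with 3.99% of all 27025 genes with a window. Isg15 had 3 overlapping matches, which began 78, 72 and 66 bases before the start. Ifit1 had matches at 104 and 85 bases, Ifit3 at 156 and 122 bases and Rsad2 at 120 bases. The windows of Ifit2, Oasl2, Ifi44 and Irf7 did not hold these letters. The GAS-like motif TTCNNNGAA, which reads the same on both strands, was found for 1 of the 8 genes, compared with 9.55% of all genes. This gene was Ifit2, with the match 241 bases before the upstream of its starts. On the other lists the GAS-like motif was found for 6 of 31 further antiviral ISGs and 5 of 9 interferon γ targets. Ifit2 has more than 1 window, and its upstream start was used for the stretch below. The stretches from 170 to 51 bases before the start are shown for the 4 genes with an ISRE-like match, which is in capitals, and for Ifit2, the gene whose level in cultured cells was closest to that in tumors. Each is written 5′ to 3′ on the strand of the gene.

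Isg15, chr4:156200869-156200988, minus strand: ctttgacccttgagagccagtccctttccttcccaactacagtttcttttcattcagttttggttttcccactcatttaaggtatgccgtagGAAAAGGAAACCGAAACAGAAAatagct
Ifit1, chr19:34640719-34640838, plus strand: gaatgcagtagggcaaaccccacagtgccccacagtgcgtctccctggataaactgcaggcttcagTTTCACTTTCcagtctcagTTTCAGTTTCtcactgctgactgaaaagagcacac
Ifit3, chr19:34583359-34583478, plus strand: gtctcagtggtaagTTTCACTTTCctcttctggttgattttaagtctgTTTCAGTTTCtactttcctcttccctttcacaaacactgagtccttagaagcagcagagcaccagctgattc
Rsad2, chr12:26456503-26456622, minus strand: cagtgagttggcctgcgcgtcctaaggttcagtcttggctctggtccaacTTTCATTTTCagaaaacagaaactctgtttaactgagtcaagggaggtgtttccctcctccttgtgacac
Ifit2, chr19:34550524-34550643, plus strand: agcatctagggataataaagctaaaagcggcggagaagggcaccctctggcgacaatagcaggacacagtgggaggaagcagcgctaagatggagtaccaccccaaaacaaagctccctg

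The depth of the libraries is unknown, because counts were not used here. In isotype day 11 replicate 1, mitochondrial genes held 54.6% of the summed FPKM, against 3.45 to 4.31% in the other isotype tumors of that day. Short non-coding RNAs encoded outside the mitochondrial genome (snRNA, snoRNA, miRNA, rRNA and similar biotypes) held 31.1 to 66.5% of the summed FPKM in PD-1cKO tumors. They held 30.2 to 54.6% in WT tumors, compared with less than 0.1% in all other samples. FPKM levels of the genetic arm are therefore not set against those of the antibody arm. Pdcd1, the deleted gene, was at 5.05 to 19.9 FPKM in PD-1cKO tumors (median 8.29) and 1.71 to 7.02 FPKM in WT tumors (median 3.01). A value over the whole gene includes exons that remain after deletion, so it does not check the labels. Epithelial markers summed to 0.608 to 0.708 FPKM in the MC-38 cultures, and 4 of 5 T-cell markers (Cd3d, Cd3e, Cd3g and Cd2) were listed at 0 in each of these cultures.

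Among the 6 groups outside the genetic arm, the antiviral ISGs were lowest in cultured cells and highest in tumors given PD-1 Ab. Cultured cells had the lowest of these means for all 10 genes, from 0.699 FPKM (Rsad2) to 11.5 FPKM (Isg15). The highest mean was in PD-1 Ab day 15 tumors for 6 genes and in PD-1 Ab day 11 tumors for 4 genes, and for each gene the ranges of these 2 groups overlapped. In the tumors of the antibody arm, Isg15 and Oasl2 were the most abundant and Rsad2 the least abundant, with means of 102.9 FPKM, 122 FPKM and 12.4 FPKM in PD-1 Ab day 15 tumors. For Irf7, Oasl2 and Usp18 the range of the second group in this order did not overlap that of the third, which held no PD-1 Ab tumors, and for the remaining 7 genes it did. In the genetic arm the means of the 10 genes ran from 4.33 to 44.8 FPKM in PD-1cKO tumors and from 4.93 to 43.5 FPKM in WT tumors.

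**Figure D1:**
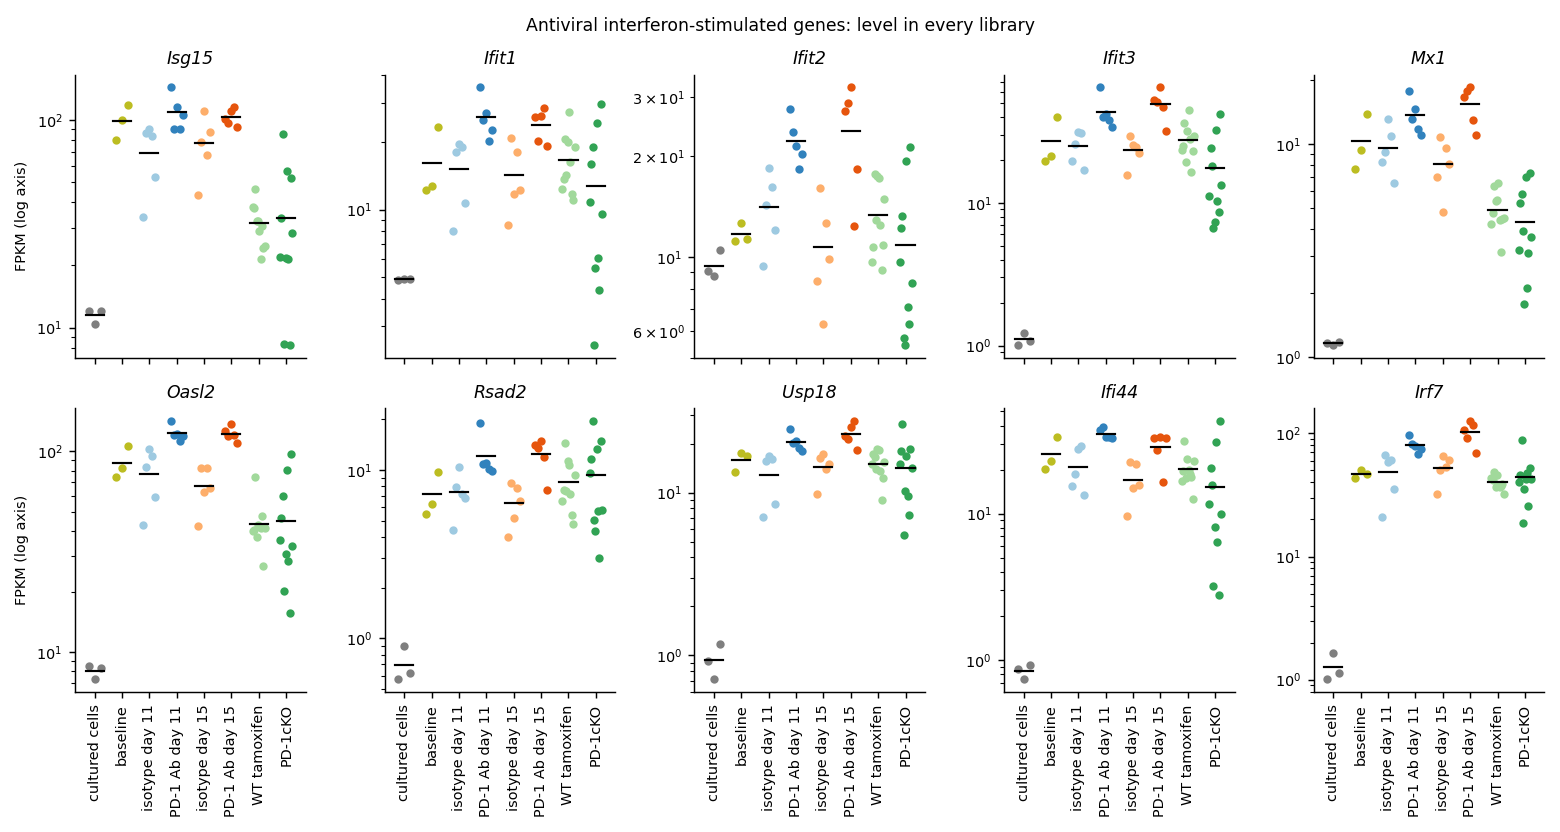
FPKM (log axis) of each of the 10 antiviral ISGs in every sample of the 8 groups. Each point is 1 sample and the line is the group mean. Cultured cells lie below every isotype day 15 tumor for 9 genes, whereas for Ifit2 they overlap them, and PD-1cKO tumors spread over a wider range than WT tumors.

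Tumors of the isotype day 15 group were set against cultured cells to see how much of the antiviral expression was there in the line alone. Of the 10 genes, 9 rose in tumors at an adjusted p under 0.01 and at least 2-fold (limma with Benjamini-Hochberg adjustment over all genes tested, the rule for a call), where 14.2% of all genes were called higher. Irf7 showed the largest difference. It was at 1.01, 1.66 and 1.14 FPKM in the 3 cultures and at 32.2, 50.4, 65.5, 53.0 and 60.9 FPKM in the 5 tumors, a log2 fold change of 5.25 (SE 0.24, adjusted p = 1.38e-07) on the scale of FPKM plus 0.1. Every tumor was above every culture.

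Ifit3, Ifi44 and Usp18 rose by log2 4.27 (SE 0.19), 4.11 (SE 0.26) and 3.81 (SE 0.21), from levels between 0.717 and 1.23 FPKM in culture. Isg15 and Mx1 rose by 2.68 and 2.64, Rsad2 7.97-fold and Oasl2 8.01-fold, and Ifit1 by log2 1.46 (SE 0.26, adjusted p = 0.0014). These 9 genes did not overlap between the groups, which was true of 26.3% of all genes in that direction. Ifit2 stood apart, at 9.05, 8.74 and 10.5 FPKM in culture and 8.50, 16.1, 6.31, 12.7 and 9.83 FPKM in tumors (log2 fold change 0.11, SE 0.26, adjusted p = 0.74). Its groups overlapped fully, and in culture it was the second most abundant of the 10 genes after Isg15. The call for Ifit1 was lost when all groups shared 1 fit or when the replicate number was a block, with an adjusted p of at most 0.013. Summed monocyte and macrophage markers were at 8.93 to 10.5 FPKM in cultures and had a median of 139 FPKM and a highest value of 167 FPKM in these tumors, and the part of these cells in the difference was not tested. In bulk samples, fewer cells of a type and less RNA per cell cannot be told apart.

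Other genes of the pathway rose in the tumors as well. Of 39 tested genes on a list of further antiviral ISGs, 33 were called higher (median log2 fold change 2.30), and all 16 genes of a list of targets induced mainly by interferon γ were called higher (median 5.35), against a median of -0.11 over all genes. Ifng, which encodes interferon γ, was listed at 0 in each culture and had a mean of 1.42 FPKM (SD 0.697, n = 5) in isotype day 15 tumors.

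Between baseline tumors and isotype day 15 tumors, none of the 10 antiviral ISGs was called, where 0.595% of all genes were. An unadjusted p under 0.05 by limma was found for 1 of the 10 and for 2647 of all 14967 genes. The log2 differences, baseline minus isotype day 15, ran from -0.12 for Irf7 to 0.63 for Ifi44 with a median of 0.20. Ifi44 was at 20.1, 23.0 and 33.6 FPKM in baseline tumors and at 9.58, 22.5, 14.9, 21.8 and 15.6 FPKM in isotype day 15 tumors, and had the smallest adjusted p, 0.28. Baseline replicate 1 was lowest of its group for all 10 genes and replicate 3 highest for 7.

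At day 11, after 1 dose, all 10 antiviral ISGs had higher means in PD-1 Ab tumors, but none was called. Log2 fold changes ran from 0.52 (Mx1) to 0.84 (Irf7), with a median of 0.75 against 0.26 over all genes. Scaling each library by the median of its ratios to the mean library (median-of-ratios) brought the median over all genes to 0.01 and that of the 10 genes to 0.50. Adjusted p-values by limma ran from 0.41 to 0.79. No gene at all was called in this comparison (0 of 14556, 0%), while 895 genes, among them all 10 antiviral ISGs, had an unadjusted p under 0.05.

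Irf7, the interferon regulatory factor, was at 97.0, 82.5, 79.5, 68.4 and 75.3 FPKM with PD-1 Ab and at 21.02, 66.7, 58.8, 60.6 and 35.4 FPKM with isotype at day 11 (log2 fold change 0.84, SE 0.30). Ifi44 was at 37.1, 38.9, 33.5, 33.2 and 32.8 FPKM with PD-1 Ab and at 15.6, 18.6, 27.5, 28.8 and 13.4 FPKM with isotype (0.82, SE 0.24). For both genes every PD-1 Ab tumor was above every isotype tumor, as it was for 7 of the 10 genes and for 3.59% of all genes tested. The exceptions were Ifit2, Mx1 and Rsad2.

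The isotype tumor with the high mitochondrial share, replicate 1, was the lowest of its group for 7 of the 10 genes. Without it the median log2 fold change was 0.56, all 10 remained positive and the smallest adjusted p was 0.089. PD-1 Ab replicate 1 was the highest of its group for 9 genes, all but Ifi44. For Rsad2 it reached 18.9 FPKM, while the other 4 tumors were at 9.86 to 11.0 FPKM. No cell-type marker was called at day 11. The summed monocyte and macrophage markers ran from 52.1 to 185 FPKM with isotype and from 193 to 256 FPKM with PD-1 Ab, and the summed endothelial markers from 4.21 to 19.6 FPKM and from 19.96 to 27.2 FPKM, both without overlap. The summed T-cell markers ran from 1.78 to 15.0 FPKM and from 11.2 to 34.9 FPKM. Their part in the values of the antiviral ISGs was not tested.

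At day 15, after 2 doses, all 10 antiviral ISGs were again higher on average with PD-1 Ab, by a median log2 fold change of 0.92 against -0.04 over all genes. Ifit3 was called, which makes 1 of 10 where 5.03% of all genes were called higher. Ifit3, Oasl2 and Irf7 passed an adjusted p of 0.01 with no fold limit, 3 of 10 where 6.69% of all genes passed in that direction. The groups did not overlap for 5 of the 10 genes (Ifit3, Mx1, Oasl2, Usp18 and Irf7), which was so for 9.23% of all genes.

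Ifit3 was at 52.1, 50.6, 64.2, 46.9 and 31.8 FPKM with PD-1 Ab and at 15.8, 29.6, 25.2, 24.7 and 22.4 FPKM with isotype. The lowest PD-1 Ab tumor lay just above the highest isotype tumor, and the log2 fold change was 1.05 (SE 0.20, adjusted p = 0.0042 by limma). The call stood close to the threshold. It was lost with no filter on low values (adjusted p = 0.014), with upper-quartile scaling (log2 fold change 0.99), with the replicate number as a block (adjusted p = 0.011) and in 1 fit over all groups (adjusted p = 0.034), where Ifit2 was called in its place (adjusted p = 0.0065). It was also lost without isotype replicate 1 (log2 fold change 0.92) or 5 (adjusted p = 0.013), or without PD-1 Ab replicate 1, 2 or 3 (adjusted p = 0.014 each). Ifit3b, with which Ifit3 shares sequence, differed by 0.99 (SE 0.26, adjusted p = 0.021).

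Irf7 was at 107, 92.1, 125, 118 and 69.4 FPKM with PD-1 Ab and at 32.2, 50.4, 65.5, 53.0 and 60.9 FPKM with isotype, and rose by log2 0.97 (SE 0.20, adjusted p = 0.0072). Oasl2 was at 126, 119, 137, 120 and 110 FPKM against 42.2, 82.1, 62.9, 82.9 and 65.5 FPKM, and rose by log2 0.90 (SE 0.17, adjusted p = 0.0039). Neither gene overlapped between the groups, and neither reached a 2-fold difference. Both have lower relative error than Ifit2, which had the largest log2 fold change of the 10 genes, 1.14, with an SE of 0.29 and an adjusted p of 0.018.

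Ifit2 was at 27.2, 28.7, 32.0, 12.4 and 18.3 FPKM with PD-1 Ab and at 8.50, 16.1, 6.31, 12.7 and 9.83 FPKM with isotype. PD-1 Ab replicate 4 lay below 2 isotype tumors, and the other 4 lay above all 5. Isg15, the most abundant transcript of the 10 in culture, had the smallest log2 fold change, 0.47 (SE 0.20, adjusted p = 0.10). It was at 101, 96.3, 110, 115 and 92.4 FPKM with PD-1 Ab and at 43.4, 77.8, 110, 67.7 and 87.3 FPKM with isotype, and isotype replicate 3 lay within the PD-1 Ab range.

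Ifit1, Mx1, Rsad2, Usp18 and Ifi44 had log2 fold changes of 0.67 to 0.96 and adjusted p-values of 0.011 to 0.044. Usp18, the negative regulator of the interferon receptor, was at 18.2 to 27.5 FPKM with PD-1 Ab and 9.85 to 17.3 FPKM with isotype. Ifi44 overlapped only through PD-1 Ab replicate 4, at 16.5 FPKM, whereas the other 4 were at 27.1 to 33.2 FPKM.

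Single tumors set the number of calls at day 15. Isotype replicate 1 was the lowest of its group for 8 of the 10 genes, PD-1 Ab replicate 3 was the highest for 7 and PD-1 Ab replicate 5 the lowest for 8. Without PD-1 Ab replicate 5, Ifit3, Mx1, Rsad2 and Irf7 were called. Without isotype replicate 2, Ifit3 and Mx1 were called, without isotype replicate 3 Ifit3 and Irf7, and without PD-1 Ab replicate 4 Ifit2 and Ifit3. The median over the 10 genes stayed between 0.78 and 1.00 when each tumor was left out in turn.

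**Figure D2:**
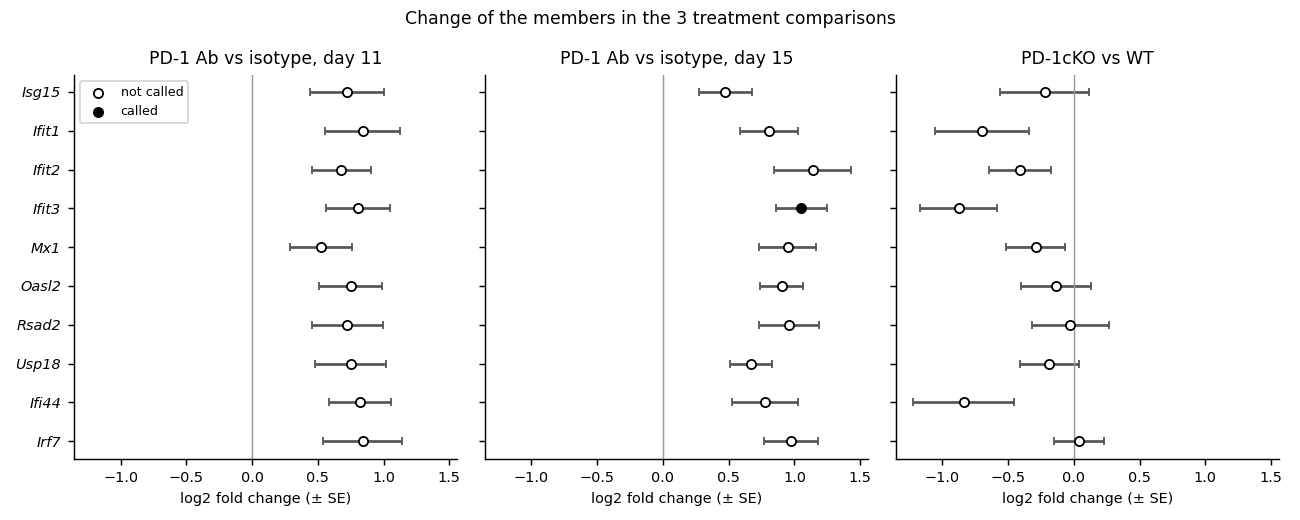
Log2 fold change of each antiviral ISG (points, with SE as bars, on the scale of FPKM plus 0.1) for PD-1 Ab against isotype at day 11 and day 15 and for PD-1cKO against WT. All 10 genes lie above 0 in both antibody comparisons, and 9 of 10 lie below 0 in PD-1cKO tumors, where none was called.

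The interferons themselves were hardly measured. None of 19 type I and type III interferon genes passed the filter of a group mean of 0.5 FPKM in any comparison, and the highest value in any sample was 0.492 FPKM, in a PD-1cKO tumor. Ifng had higher means with PD-1 Ab on both days. At day 11 its mean was 1.11 FPKM (SD 0.917, n = 5) with isotype and 5.04 FPKM (SD 1.53, n = 5) with PD-1 Ab, without overlap (log2 fold change 2.44, SE 0.55, adjusted p = 0.24 by limma). At day 15 it was called. Its mean was 1.42 FPKM (SD 0.697, n = 5) with isotype and 8.23 FPKM (SD 2.83, n = 5) with PD-1 Ab, which is 2.52 on the log2 scale (SE 0.34, adjusted p = 0.0011). The 2 effects differed by 0.08 (SE 0.68, adjusted p = 0.96).

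No receptor gene was called at day 15. Of 5 tested, Il10rb, a chain of the receptor for type III interferon, differed by 0.89, Ifnar2 by 0.51, Ifngr1 by 0.48, Ifnar1 by 0.45 and Ifngr2 by 0.11. Among the signal transducers, Stat2 rose by 1.21 (SE 0.17) and Tyk2 by 1.11 (SE 0.18), and both were called. Irf9, the DNA-binding part of ISGF3, passed the adjusted p but not the fold limit (0.72, SE 0.12, adjusted p = 0.0030).

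Of 5 negative regulators other than Usp18, the phosphatase gene Ptpn6 was called, at a mean of 61.1 FPKM with PD-1 Ab and 25.4 FPKM with isotype (adjusted p = 0.0014), and Socs1, an inhibitor of Jak kinases, passed the adjusted p alone (0.89, SE 0.14). Of 3 genes for conjugation of Isg15, Uba7, which encodes the activating enzyme, was called (1.27, SE 0.16, adjusted p = 9.00e-04). Isg15 itself was not called.

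Of 39 further antiviral ISGs tested, 9 were called higher and none lower, and 18, these 9 included, passed an adjusted p of 0.01 with no fold limit, with a median log2 fold change of 0.75. Dtx3l, a ubiquitin ligase, rose by 1.34 (SE 0.23, adjusted p = 0.0030) and Ifit1bl1, a relative of Ifit1, by 1.63 (SE 0.35, adjusted p = 0.0079). Slfn5 had the largest value, 2.12 (SE 0.57), with an adjusted p of 0.021, and Isg20, an exonuclease gene, the lowest at -0.02. The list of targets induced mainly by interferon γ had 13 of 16 genes called higher, with a median of 1.80. Ido1, an enzyme of tryptophan breakdown, rose by 2.34 (SE 0.35) and Ciita, the transactivator of MHC class II genes, by 2.22 (SE 0.32). At day 11 none of these genes was called, and the medians were 0.66 for the further ISGs and 1.17 for the interferon γ targets.

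Markers of leukocytes and of other cells moved with these values at day 15. All 5 T-cell markers and both CD8 markers were called higher, as were 4 of 6 markers of monocytes and macrophages. The summed T-cell markers ran from 5.48 to 11.5 FPKM with isotype and from 21.2 to 91.4 FPKM with PD-1 Ab, and the summed monocyte and macrophage markers up to 167 FPKM with isotype (median 139) and from 214 to 499 FPKM with PD-1 Ab (median 436). Of 2 tested markers of plasmacytoid dendritic cells, a main source of type I interferon, 1 was called. None of the 5 fibroblast and 4 epithelial markers was called, though the summed epithelial markers had a median of 4.05 FPKM with isotype and 37.0 FPKM with PD-1 Ab. Of 3 endothelial markers 1 was called, and their sum ran from 14.3 to 18.97 FPKM with isotype and from 20.2 to 68.2 FPKM with PD-1 Ab. Of 5 adipose markers 1 was called (Plin1), and of 4 tested skeletal muscle markers 1 (Acta1). The part of these cells in the difference of the antiviral ISGs was not tested.

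**Figure D3:**
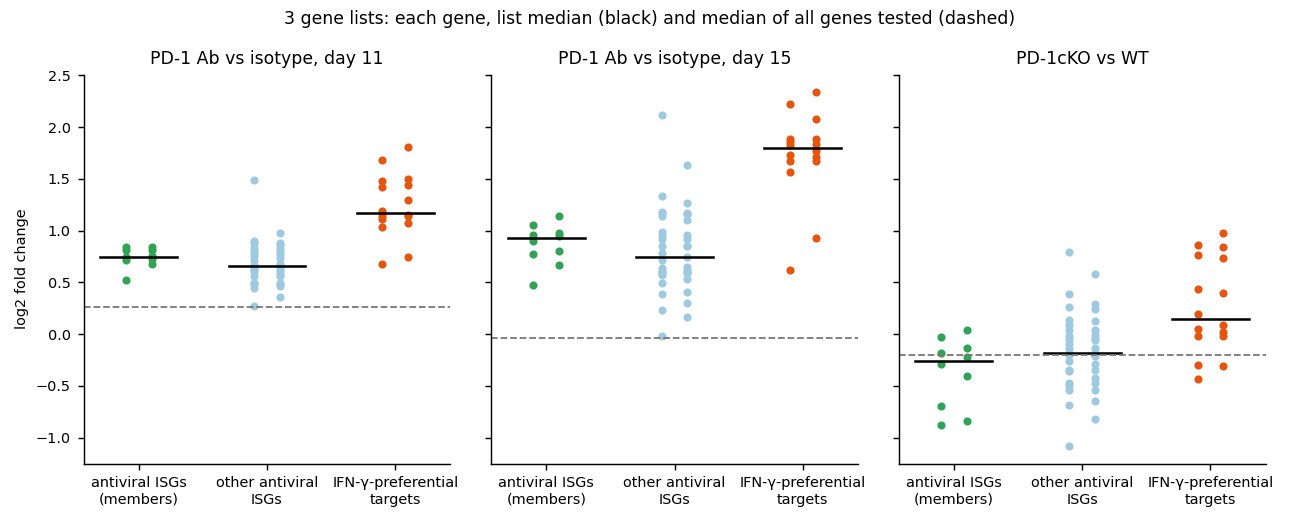
Log2 fold change of each tested gene (points) of the antiviral ISGs, the further ISGs and the interferon γ targets. Panels show PD-1 Ab against isotype at day 11 and day 15 and PD-1cKO against WT. Black lines are list medians, and the dashed line is the median of all genes tested. With antibody at day 15 the interferon γ targets (median 1.80) lie above the 10 antiviral ISGs (0.92) and the further ISGs (0.75). In PD-1cKO tumors the 3 medians are 0.14, -0.26 and -0.18.

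In the genetic arm, none of the 10 antiviral ISGs was called between PD-1cKO and WT tumors, where 8.07% of all genes were called. None passed an adjusted p of 0.01 at any fold either, as 21.3% of all genes did, and for none did the PD-1cKO tumors all lie below the WT tumors, as they did for 0.305% of all genes. Unadjusted p-values under 0.05 by limma were found for 2 of the 10 and for 7968 of all 15075 genes. Of the 10, 9 had lower means on the log2 scale in PD-1cKO tumors, with a median of -0.26, close to the median of -0.20 over all genes. With median-of-ratios scaling, which brought the median over all genes to -0.04, that of the 10 genes was -0.10, with 3 genes positive and 7 negative. The scaling also moved the split of calls over all genes. As deposited, 633 were higher and 584 lower (52.0% higher), against 924 and 339 (73.2% higher) with median-of-ratios.

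Ifit3 came nearest to the threshold. It was at 6.64 to 42.1 FPKM in PD-1cKO tumors (median 12.3) and 16.5 to 44.4 FPKM in WT tumors (median 26.4), a log2 fold change of -0.88 (SE 0.29, adjusted p = 0.021 by limma). The ranges overlapped over most of their length, and without PD-1cKO replicate 6 or 9 Ifit3 was called lower (adjusted p = 0.0080 and 0.0031). Ifi44 was at 2.77 to 42.8 FPKM (median 10.8) against 12.6 to 31.6 FPKM (median 19.1), a difference of -0.84 (SE 0.38, adjusted p = 0.080).

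Ifit1 differed by -0.70 (SE 0.36, adjusted p = 0.11) and Ifit2 by -0.41 (SE 0.23, adjusted p = 0.16). Irf7 was at 18.9 to 89.1 FPKM in PD-1cKO tumors (median 42.6) and 32.1 to 48.9 FPKM in WT tumors (median 38.3), a log2 difference of 0.04 (SE 0.19). All WT tumors lay inside the PD-1cKO range for Irf7. The remaining 5 genes, Mx1, Isg15, Usp18, Oasl2 and Rsad2, had differences between -0.29 and -0.03. Those of Oasl2 and Rsad2 were 0.03 and 0.13 with median-of-ratios scaling.

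The sample identifiers in the labels fall into 3 runs of close numbers (2 numbers are skipped within the second), which are unevenly divided between the genotypes. The first run holds PD-1cKO tumors 1 to 7 and no WT tumor, the second PD-1cKO tumor 8 and WT tumors 1 to 9, and the third PD-1cKO tumors 9 and 10 and WT tumor 10. Within the second run, all 10 genes were lower in the PD-1cKO tumor than in the WT mean, by log2 differences of -2.75 to -0.64. Within the third run, 5 were higher and 5 lower, from -0.31 to 0.65. With the run as a covariate the log2 differences of the 10 genes ran from -1.64 to -0.14, and no gene of the table was called. In the first run, run and genotype cannot be told apart, so the differences of this fit rest on PD-1cKO tumors 8, 9 and 10 alone.

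The PD-1cKO tumors varied more among themselves than the WT tumors did. The median SD of the 10 genes on the log2 scale was 0.853 in PD-1cKO tumors, from 0.596 (Irf7) to 1.28 (Ifi44), and 0.352 in WT tumors. Over all genes the median SD was 0.545 and 0.253. The same tumors stood at the ends for most of the genes: PD-1cKO tumors 4 and 8 were each lowest for 4 genes, tumor 9 was highest for 6 and tumor 3 for 4.

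Short non-coding RNA moved with this spread. In the 10 PD-1cKO tumors, the mean log2 level of the 10 genes ran against the share of short non-coding RNA in the summed FPKM (Pearson's r = -0.91, Spearman's rho = -0.95, n = 10, given as a description with no p). Without the 2 tumors farthest from the median share, r was -0.87, and within the first identifier run it was -0.88 (n = 7). FPKM is scaled by the mapped fragments of a library, so many fragments of short RNAs can lower all other values. The part of this scaling in the spread was not tested. A share of summed FPKM is not a share of fragments, because FPKM also divides by length. The sum was not a fixed total, at 598599 FPKM in PD-1cKO tumor 9 (31.1% short RNA) and 1.22e+06 FPKM in tumor 8 (66.5%). The median r over 13031 genes was -0.48. With median-of-ratios scaling the median over all genes was -0.03, while the 10 genes ran from -0.88 to -0.42 (median -0.80). In the 10 WT tumors the r was -0.07 (rho -0.27), or -0.53 without 2 tumors.

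**Figure D4:**
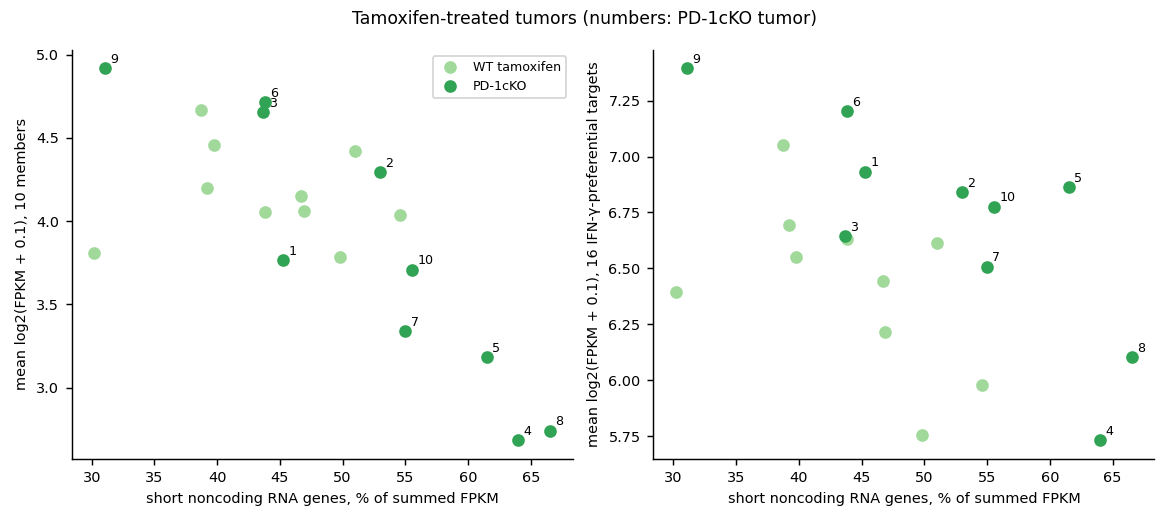
Mean log2 level (FPKM plus 0.1) of the 10 antiviral ISGs (left) and the 16 interferon γ targets (right) in each tumor of the genetic arm. The horizontal axis is the share of short non-coding RNA in percent of the summed FPKM. Each point is 1 tumor, and PD-1cKO tumors are numbered by replicate. On the left, PD-1cKO tumors with shares over 60% have the lowest means, tumor 9 with 31.1% the highest, and WT tumors lie in a narrower band. On the right, tumor 9 also has the highest mean, and Pearson's r over the PD-1cKO tumors was -0.80.

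Ifng was the only gene of the interferon lists that was called between PD-1cKO and WT tumors. Of the 39 further ISGs none was called, with a median of -0.18 and 28 negative, or -0.02 and 20 negative with median-of-ratios scaling. Lgals3bp rose by 0.79 and the RNA sensor gene Ddx58 fell by 0.65 at an adjusted p under 0.01 without reaching the fold limit. Stat2 differed by 0.14 (SE 0.20, adjusted p = 0.57), whereas Tyk2 rose by 0.88 (SE 0.17, adjusted p = 0.0013). Il10rb rose by 0.99 (adjusted p = 0.0011), Uba7 by 0.73 and Ptpn6 by 0.67 (adjusted p = 0.0020 and 0.0098), each short of the fold limit. Ifng had a mean of 1.14 FPKM (SD 0.835, n = 10) in WT tumors and of 2.29 FPKM (SD 0.987, n = 10) in PD-1cKO tumors, and rose by log2 1.02 (SE 0.27, adjusted p = 0.0069).

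None of the 16 interferon γ targets was called in PD-1cKO tumors, although 3 were with median-of-ratios scaling. Those that passed the adjusted p alone were H2-Ab1 (0.98), H2-Eb1 (0.86), H2-Aa (0.84), Cd74 (0.77) and Ciita (0.73), which act in antigen presentation by MHC class II and are also highly expressed in antigen-presenting cells. All 5 T-cell markers were called higher (median 1.66), and the summed T-cell markers ran from 17.1 to 82.6 FPKM in PD-1cKO tumors and from 6.49 to 25.1 FPKM in WT tumors. Of the 6 monocyte and macrophage markers 1 was called (Cd68), and Csf1r (0.96) and Mertk (0.90) passed the adjusted p alone. Ly6c2 rose by 1.09 and Adgre1 by 0.52 without passing it, and Ccr2 differed by -0.06. The sum of these markers had a median of 332 FPKM in PD-1cKO tumors and 176 FPKM in WT tumors, with overlap. Neither of the 2 tested markers of plasmacytoid dendritic cells was called, though Pacsin1 (0.95) passed the adjusted p alone. Both CD8 markers were called higher, as were 3 of 5 fibroblast markers (Col1a1 by 1.68, Col1a2 by 1.94 and Col3a1 by 1.48) and 2 of 3 tested neutrophil markers (S100a8 by 2.47 and Csf3r by 1.26). Their part in the values of the antiviral ISGs was not tested.

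The difference between the arms was tested directly, as the PD-1 Ab effect at day 15 minus the PD-1cKO effect. It was positive for all 10 antiviral ISGs, from 0.70 (Isg15) to 1.93 (Ifit3) with a median of 1.14, against 0.23 over all genes. Ifit3 had the smallest adjusted p of the 10 (SE 0.46, adjusted p = 0.042 by limma), and none was called at 0.01, where 0.0975% of all genes were (2585 genes at an unadjusted p under 0.05). With median-of-ratios scaling the median of the 10 genes was 0.92 and that over all genes 0.03. Without PD-1cKO replicate 9 the adjusted p of Ifit3 was 0.0082. The arms also differ in tumor age, tamoxifen and the share of short non-coding RNA, which cannot be told apart from the kind of PD-1 loss.

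No change of the PD-1 Ab effect between day 11 and day 15 was called for these genes. The effect at day 15 minus that at day 11 had a median of 0.14, with 6 genes positive and 4 negative. With median-of-ratios scaling all 10 were positive with a median of 0.42, while the median over all genes went from -0.27 to -0.01. No gene was called (0%; limma, 1182 genes at an unadjusted p under 0.05).

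Within each library, the mean log2 level of the 10 antiviral ISGs was also set against that of the 16 interferon γ targets, a difference that no scaling of the library can change much. In cultured cells the antiviral ISGs were higher, by 1.93 to 2.09. In every tumor they were lower, from -2.11 to -1.20 with isotype at day 15 and from -2.65 to -2.38 with PD-1 Ab at day 15, and these groups did not overlap. In WT tumors the difference ran from -2.59 to -1.94 (median -2.24) and in PD-1cKO tumors from -3.68 to -1.99 (median -3.06), with overlap. PD-1 Ab and isotype tumors overlapped at day 11, at -2.55 to -1.45 and -2.19 to -1.12. The mean of the interferon γ targets was -0.77 to -0.70 in cultured cells and 5.39 to 6.63 in isotype day 15 tumors. That of the antiviral ISGs was 1.23 to 1.32 and 3.75 to 4.67. The sign also depends on which genes a list holds. The interferon γ targets include MHC class II genes, highly expressed in antigen-presenting cells, and the part of these cells was not tested.

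**Figure D5:**
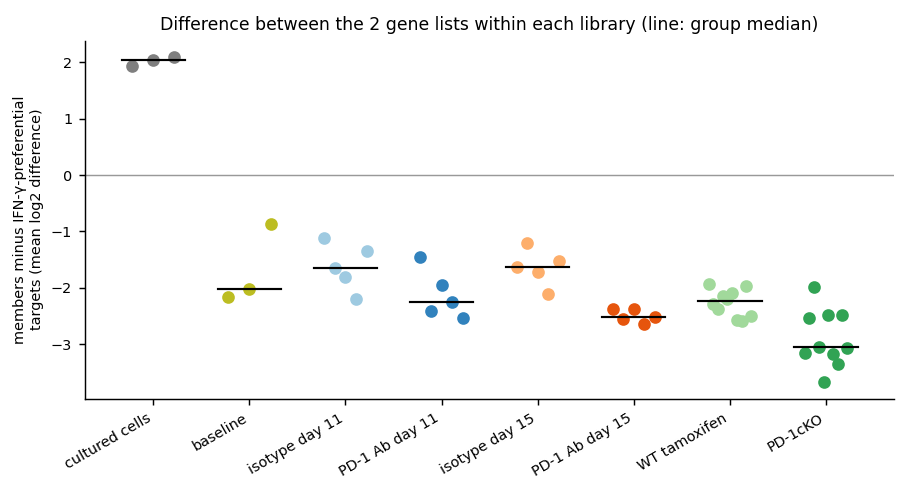
Mean log2 level of the 10 antiviral ISGs minus that of the 16 interferon γ targets in each sample (points) of the 8 groups, with the group median as a line. Cultured cells lie near 2 and every tumor below 0, and PD-1 Ab day 15 tumors (median -2.51) lie below isotype day 15 tumors (median -1.64).

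Across the 43 tumors, with each group centred on its own mean, the 10 genes varied together. Pairwise r ran from 0.36 (Mx1 with Irf7) to 0.92 (Oasl2 with Ifi44), with a median of 0.79. The points share the scaling of each library, and with median-of-ratios scaling the range was 0.18 to 0.91 with a median of 0.72. The median r of 13228 genes with the mean of the 10 was 0.37 as deposited and 0.0053 after that scaling. Outside the 10, the genes whose pattern was most like their mean were Rtp4 (r = 0.94), Phf11d (0.89), Ifi211 (0.87), Cxcl11 (0.85), Gm12250, Xaf1, Irgm1, Apol10b, Cmpk2 and Ddx58 (0.84 each), and 8 of these 10 were again in the leading 10 with median-of-ratios scaling. Of the 10, 5 were on the pathway lists.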

How the data were processed

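Gene expression was measured in 46 bulk samples (43 tumors) and samples were grouped by their labels. The authors made stranded total RNA libraries, read paired ends of 50 bases and quantified Ensembl 86 gene models on mouse build B38 in Omicsoft Array Studio 10.0.1.118, allowing 2 mismatches. The values deposited by the authors are FPKM, fragments per gene, scaled for transcript length and for the library's mapped fragments. An RNA class that holds many of the mapped fragments can therefore lower all other values of its library. The authors tested counts with DESeq2. FPKM does not return whole reads (3743 values lie between 0 and 1e-06), so depth is unknown and no count test was run.

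Here, 0.1 FPKM was added before log2, and genes whose mean reached 0.5 FPKM in any group of a fit were kept. The test was that of limma 3.58.1 (lmFit and eBayes with a trend, R 4.3.3), using only the groups compared, with Benjamini-Hochberg adjustment over all tested genes and 2-sided tests. A call required an adjusted p under 0.01 and at least a 2-fold change; differences between effects had no fold limit. The comparisons of isotype day 15 tumors with cultures, baseline and PD-1 Ab, and both differences of effects, share those isotype tumors. Symbols and coordinates came from GENCODE M21 for 99.1% of genes. Python 3.11.15, pandas 2.3.3, numpy 2.4.6 and matplotlib 3.10.9 were used for summaries. The fits were tested on simulated data. The 10 genes, the gene lists and the markers were chosen with earlier results of these data known. The 10 genes were all described, and from each list those called, or with the largest and smallest changes, were named. Likeness was Pearson's r with the mean of the 10 genes over genes whose mean reached 1 FPKM, and the leading 10 were named. No sample was left out. A gene of the pathway lists is not reported here.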

Additional observations from a re-analysis of the deposited data

Results flagged for a closer look

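In 60 combinations of an antiviral ISG and a group of 5 or 10 tumors, 2 tumors stood far from the rest of their group, and chance alone gives about 1 in 20. For Rsad2 at day 11, PD-1 Ab replicate 1 was the highest at 18.9 FPKM, and its gap to the next tumor was 0.827 of the range of the group. For Ifi44 at day 15, PD-1 Ab replicate 4 was the lowest at 16.5 FPKM, with a gap of 0.712 of the range on the same log2 scale. The difference between the antibody and PD-1cKO effects, or between both days, passed the threshold for none of the 10 genes.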

How the results depend on the processing

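Depth is unknown, so precision rests on 3 to 10 samples a group. The 9 calls against cultures held without each sample in turn, and all 10 genes were positive at day 11 and day 15 in every alternative run. The cause of the following changes was not tested. At day 11, 16 genes were called in 1 fit over all groups and 0 to 7 without each tumor (7 without isotype replicate 1). At day 15, 799 genes were called, against 450 with no filter, 316 with the replicate block, and 375 to 1534 without each tumor (491 and 494 without isotype replicate 1 or 5, 445, 422, 375 and 1534 without PD-1 Ab replicate 1, 2, 3 or 5). The antiviral ISGs called there were 0 with no filter, with upper-quartile scaling and with the replicate block, and 0 to 4 without each tumor. For PD-1cKO, 1217 genes were called, against 617 with 1 FPKM added, 0 with the identifier run as a covariate (also with median-of-ratios scaling, chosen after seeing the data), and 743 to 1871 without each tumor (743 without PD-1cKO replicate 4, 786 without 8, 1871 without 9), with 0 to 1 antiviral ISGs. There Oasl2 was 0.028 with median-of-ratios and 0.040 with upper-quartile scaling, Rsad2 0.13 and 0.14, and Irf7 -0.14 with the run. Without each tumor Oasl2 ran from -0.28 to 0.011, Rsad2 from -0.17 to 0.13 and Irf7 from -0.084 to 0.16. Against cultures, 3231 genes were called, 2562 to 3364 without each sample, and Ifit2 ran from -0.054 to 0.28. For baseline, 89 genes were called, against 135 with 1 FPKM added, 57 with no filter, 172 in 1 fit over all groups, 0 with the block and 13 to 166 without each tumor (14, 13 and 56 without baseline replicate 1, 2 or 3, and 44, 54, 166 and 18 without isotype replicate 1, 2, 3 or 5), and there Ifit1 ran from -0.11 to 0.35, Ifit3 from -0.17 to 0.33 and Rsad2 from -0.075 to 0.33. For the antibody effect minus the PD-1cKO effect, 16 genes were called, against 43 with 1 FPKM added, 33 with no filter, 9 with median-of-ratios, 1 with upper-quartile scaling, 2 in 1 fit over all groups, 4 with the block, 1 with the run under either scaling and 2 to 61 without each tumor (lowest without PD-1 Ab replicate 3, highest without PD-1 Ab replicate 5, and moved by over 1.5 times by 15 of 30 tumors), with 0 to 1 antiviral ISGs. For day 15 minus day 11, 1 gene was called with no filter. With median-of-ratios scaling Isg15 was 0.028 there, Ifit1 0.24, Usp18 0.19 and Ifi44 0.23, and with upper-quartile scaling Ifit1 was 0.17, Usp18 0.13 and Ifi44 0.16. Without each tumor Ifit1 ran from -0.20 to 0.17, Oasl2 from -0.0056 to 0.34, Usp18 from -0.21 to 0.11, Ifi44 from -0.23 to 0.14 and Irf7 from -0.033 to 0.40.

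Tumors with the same replicate number did not deviate together (r from -0.21 to 0.04 over 5 pairs at day 15, -0.17 to 0.16 at day 11 and -0.19 to 0.11 over 10 pairs of the genetic arm). So few pairs cannot exclude a pairing, but no label or method states one, and the block was only an alternative.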
